A study of Mus musculus with 2 samples.

Results

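LIM homeodomain factors are transcription factors that carry a pair of zinc-binding LIM domains in front of a DNA-binding homeodomain. The 10 members read here were Lmx1a, Lmx1b, Lhx1, Lhx2, Lhx3, Lhx5, Lhx8, Lhx9, Isl1 and Isl2. They were chosen by name, and every probe set that names 1 of them and no other gene was read, which gave 17 of the 45101 probe sets on the array, for 10 of 18194 genes. Expression was compared between 2 populations of cells, EGFP-positive (written EGFP+ here) and EGFP-negative (written EGFP- here), sorted from the mouse otocyst, the epithelial vesicle that becomes the inner ear, at E10.5. All embryos carried the transgene Tg(ETAR-EGFP)14Imeg in the heterozygous state, and embryos without it were not analysed here. Per the labels, EGFP is found for the most part in the dorsomedial and ventral otocyst and is missing from the dorsolateral otocyst. The labels call the sorted cells epithelial, but markers of blood, mesenchyme and hindbrain had high summed signals in the EGFP- array, given beside the results they touch, so the arrays do not compare otocyst territories alone. Each population was measured on 1 array, the sources used here do not give the number of embryos pooled, and no difference can be set against a spread between samples.

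The LIM domains of these factors bind the adaptor Ldb1 or Ldb2, which dimerises and joins them into complexes, and LIM-only proteins compete for the same adaptor. Combinations of LIM homeodomain factors label neuron classes in the hindbrain and spinal cord, and single members pattern other tissues. In the inner ear, Lmx1a is known from the dreher mouse mutants, in which the otic vesicle fails to separate its sensory from its non-sensory epithelium and to form the endolymphatic duct. Isl1 is known from the prosensory epithelium and the neuroblasts of the cochleovestibular ganglion.

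Of the 10 members, 9 had a window in the RefSeq promoter table (GRCm38.p6), in 11 windows. The 250 bases before an annotated transcript start are shown for Lmx1a and Isl1, which had higher signals in EGFP+ cells, and for Lhx2 and Lhx9, which had higher signals in EGFP- cells, because the results turn on these genes. They are written 5′ to 3′ on the gene's strand, and capitals mark GGGCGG, the core of the GC box, and CAGCTG, an E-box, on either strand. The windows are chr1:167689308-167689557 on the plus strand for Lmx1a, chr13:116309689-116309938 on the minus strand for Isl1, chr2:38339031-38339280 on the plus strand for Lhx2 (the first of its pair of listed starts) and chr1:138842445-138842694 on the minus strand for Lhx9.
Lmx1a: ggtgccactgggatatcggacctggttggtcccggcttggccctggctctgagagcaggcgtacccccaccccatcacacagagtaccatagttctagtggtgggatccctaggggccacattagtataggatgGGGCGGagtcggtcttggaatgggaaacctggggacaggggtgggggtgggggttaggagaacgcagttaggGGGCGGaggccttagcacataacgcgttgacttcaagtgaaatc
Isl1: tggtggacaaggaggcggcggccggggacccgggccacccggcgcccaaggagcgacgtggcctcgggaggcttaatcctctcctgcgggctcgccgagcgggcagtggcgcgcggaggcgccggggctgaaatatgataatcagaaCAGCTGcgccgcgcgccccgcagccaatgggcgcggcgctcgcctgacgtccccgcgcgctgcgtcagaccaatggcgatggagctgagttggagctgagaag
Lhx2: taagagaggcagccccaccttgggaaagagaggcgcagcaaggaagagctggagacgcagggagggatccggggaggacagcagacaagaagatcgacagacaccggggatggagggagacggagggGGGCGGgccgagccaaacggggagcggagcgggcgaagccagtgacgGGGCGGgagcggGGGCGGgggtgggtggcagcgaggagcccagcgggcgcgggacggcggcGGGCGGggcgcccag
Lhx9: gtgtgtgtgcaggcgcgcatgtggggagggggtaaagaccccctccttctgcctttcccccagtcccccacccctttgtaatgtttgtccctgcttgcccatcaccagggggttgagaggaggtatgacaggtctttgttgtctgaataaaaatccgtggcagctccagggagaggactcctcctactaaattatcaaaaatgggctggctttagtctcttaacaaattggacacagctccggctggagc

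The 4 windows differed in their number of CpG dinucleotides. The Isl1 window held 33 and that of Lhx2 held 25, against 9 for Lmx1a and 4 for Lhx9, where the median of all 32851 windows was 6. GGGCGG, which 32.7% of all windows hold, was found 4 times in the Lhx2 window and 2 times in that of Lmx1a. Of the member windows not shown, those of Lhx3 held it 3 and 2 times and that of Isl2 held it 1 time. The window at the other Lhx2 start held none. CAGCTG, which 13.0% of all windows hold, was found once in that of Isl1. TAATTA, the palindromic core that LIM homeodomains and many other homeodomains bind, was in none of the 11 windows of the members and in 4.84% of all windows. CAGATG, another E-box, was in 14.4% of all windows and in 1 of the 11, at Lhx3. These are matches of letters in short windows, and no binding was measured.

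The deposited values are MAS5 signals, 1 per probe set, on a linear scale. A floor was set at each array's 40th percentile of signal, 10.4 for EGFP+ and 12.4 for EGFP- cells. Signals under the floor were set to it, and log2 ratios are written as EGFP+ divided by EGFP-. Where only 1 of the signals was above its floor, the fold is a lower limit, written "at least". A gene is represented by its brightest probe set. In the respective arrays the highest signal was 7984 and 7166, and 12411 and 12634 genes were above the floor. Probe sets for the same gene differed with an SD of 0.31 in log2 ratio (5640 genes), and of 0.41 where the mean signal was under 50, which is a technical error that leaves out embryos, sorts and hybridisations. Genes of the general epithelium list, some of them otic, were at least 2-fold higher in EGFP+ cells in 10 of 12 cases. Genes of mesenchyme, blood, endothelium and hindbrain were mostly higher in EGFP- cells, as given beside the results they touch.

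Of the LIM homeodomain genes above the floor, 3 had log2 ratios above 0 (Lmx1a, Isl1 and Isl2) and 5 below 0 (Lhx2, Lhx9, Lmx1b, Lhx1 and Lhx3). Over all genes above the floor, 50.2% had a ratio above 0. Lmx1b, Lhx1 and Lhx3 were dim in both populations, as were Lhx5 and Lhx8. With ratios centred on general epithelium genes, Isl1 and Isl2 fell below 0, as did the median of all genes, at -1.33. Of the 10 genes, 8 were above the floor in at least 1 array, of which 1 (Lmx1a) was at least 2-fold higher in EGFP+ cells, 2 (Lhx2 and Lhx9) were at least 2-fold higher in EGFP- cells and 5 were within 2-fold. Over all 13363 genes above the floor, 2.90% were at least 2-fold higher in EGFP+ cells and 7.63% in EGFP- cells. Of these calls over all genes, 72.4% were on the EGFP- side, and 62.0% after quantile normalization. The median log2 ratio of the 8 members was -0.23, beside 0.0032 over all genes. With so few members these counts describe the individual genes and do not set the family apart.

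**Figure D1:**
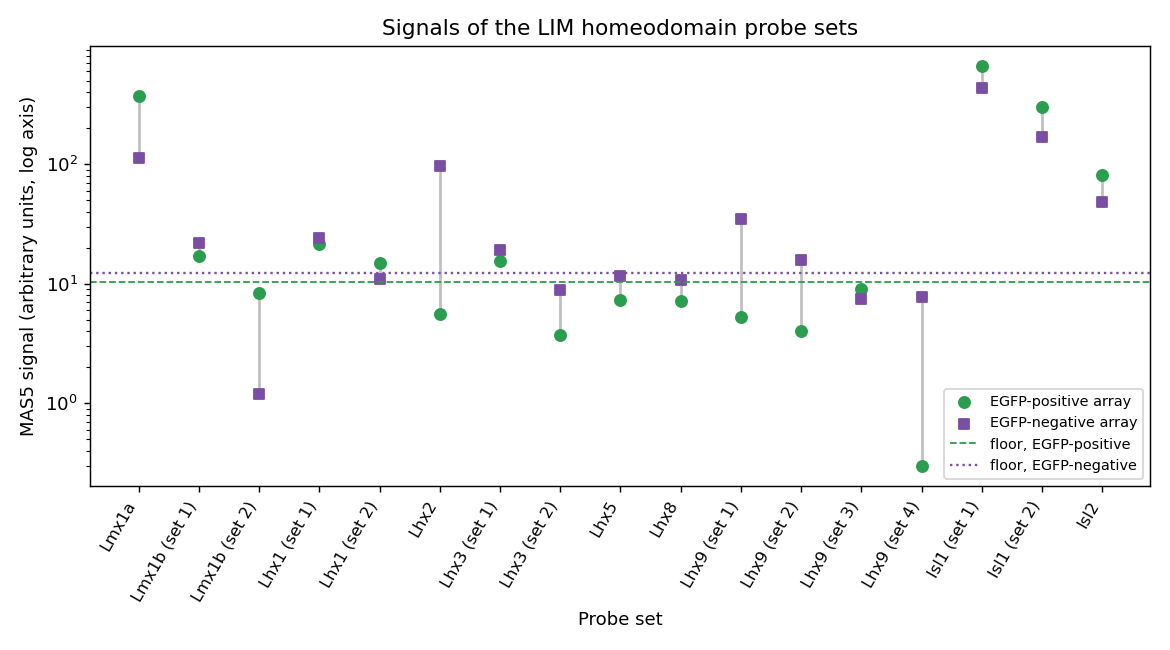
MAS5 signal of each of the 17 probe sets (log axis, arbitrary units) in the EGFP+ array (green circles) and the EGFP- array (purple squares), with the floor of each array as a line; sets of 1 gene are ordered by mean signal. Lmx1a, both sets of Isl1 and Isl2 are higher in the EGFP+ array and well above both floors, whereas Lhx2 and the first and second sets of Lhx9 are above the floor in the EGFP- array and below it in the other.

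Lmx1a had a signal of 373.6 in EGFP+ and 113.7 in EGFP- cells, and was above the floor in both. This is 3.29-fold higher in EGFP+ cells, a log2 ratio of 1.72 from a single probe set, and 0.61% of all genes had a higher ratio. The difference is larger than the SD of 0.31 between probe sets. It also lies within the range of the general epithelium list, which includes otic genes. Only Fbxo2 and Cldn6 of that list had higher ratios than Lmx1a. The 12 genes of the general epithelium list had a median log2 ratio of 1.33 and ranged from -0.58 (Oc90, an otoconial protein gene) to 1.77 (Fbxo2, an otic ubiquitin ligase gene), with Cldn6, a tight junction gene, at 1.73. Set against that median, which shifts the median of all genes to -1.33, Lmx1a stood at 0.39 and was no longer past 2-fold. The summed signal of the list was 10660 in EGFP+ and 5187 in EGFP- cells, and its part in the ratio of Lmx1a was not tested. In a sorted population, fewer cells that express a gene and less of its RNA per cell cannot be told apart.

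Lmx1b, the paralog of Lmx1a that acts in limb, kidney, roof plate and midbrain-hindbrain development, was dim. Its brighter probe set gave 17.2 in EGFP+ and 22.1 in EGFP- cells, a log2 ratio of -0.36, within the SD between probe sets at low signal. Its other set was below the floor in both arrays, at 8.3 and 1.2. The Lmx1 paralogs thus had ratios that differed by more than the SD between probe sets, with Lmx1a alone clearly above the floor.

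Both factors are known from the roof plate of the neural tube, so roof plate genes were read beside them. Of 6 measured roof plate genes, 4 were at least 2-fold higher in EGFP- cells, none was past 2-fold in EGFP+ cells, and the median log2 ratio was -1.23. Ttr, the transthyretin gene of the choroid plexus, had 4.1 in EGFP+ against 37.3 in EGFP- cells, and Rspo1, a Wnt agonist gene, had 5.7 against 26.9. Rspo3, another Wnt agonist gene, had 249.4 against 186.7, a log2 ratio of 0.42. The log2 ratios of these genes ran from -1.84 for Ttr, a bound, to 0.42 for Rspo3, beside 1.72 for Lmx1a. The part of roof plate RNA in the signals of Lmx1a was not tested. The summed signal of the roof plate list was 336.8 and 434.0, and none of its genes was listed at 0.

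Isl1, the first of the Islet factors, was bright in both populations and higher in EGFP+ cells by both probe sets. The brighter set had 665.1 in EGFP+ and 438.6 in EGFP- cells, 1.52-fold. The other had 301.7 and 169.2, 1.78-fold. The log2 ratios, 0.60 and 0.83, differed by 0.23, less than the SD between probe sets, and the platform table lists the same transcript accession for both sets. The Isl1 ratio was within 2-fold, and 7.54% of all genes had a higher one.

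Isl2, a paralog that marks subsets of motor and sensory neurons, had 81.3 in EGFP+ and 48.5 in EGFP- cells. It was 1.68-fold higher in EGFP+ cells, a log2 ratio of 0.75 from 1 probe set, also within 2-fold. The Islet genes therefore differed the same way and by similar amounts, each less than Lmx1a. Centring on the general epithelium median of 1.33 puts every gene with a lower log2 ratio below 0. It gave -0.73 for Isl1 and -0.59 for Isl2, beside -1.33 for the median of all genes, so this turn is not particular to them.

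Since Isl1 labels otic neuroblasts, the 14 genes of otic neuroblasts and ganglion were read with it. Of these, 3 were at least 2-fold higher in EGFP+ cells, 2 were at least 2-fold higher in EGFP- cells and 9 were within 2-fold, with a median log2 ratio of -0.49. Shox2, a homeobox gene of sensory neurons, had 224.5 in EGFP+ against 94.9 in EGFP- cells, Pou4f1, a POU homeodomain factor gene of sensory neurons, had 136.5 against 60.9, and Neurog1, the proneural gene of the ganglion, had 216.7 against 98.7. Their second probe sets had log2 ratios of 1.02 for Shox2, 0.62 for Pou4f1 and 0.46 for Neurog1. Of the 3, only Shox2 was thus past 2-fold by both sets, and all 3 were on the same side as Isl1 and Isl2. Neurod1, which acts after Neurog1, had a log2 ratio of 0.98, with its second set at 1.44, and Eya2 had 0.52.

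The remaining 9 genes of that list were on the other side. Neurod4, another proneural gene, had 2.6 in EGFP+ against 39.1 in EGFP- cells, and Prph, which encodes the neuronal filament protein peripherin, had 1.7 against 27.3. The other 7 were within 2-fold by their brightest probe sets. Their log2 ratios ran from -0.84 for Stmn2, a growth cone protein gene, to -0.45 for the neurotrophin receptor gene Ntrk2. The second Stmn2 set was at -1.19. Of the 14 genes, 5 had ratios above 0, as Isl1 and Isl2 did, and 9 had ratios below 0, where 50.2% of all genes had ratios above 0. With so few genes these counts do not set the list apart. The summed signal of the list was 3142 in EGFP+ and 2763 in EGFP- cells.

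Isl1 and Isl2 with Lhx3 also specify motor neurons, and this class was dim here. Of 9 measured cranial motor neuron genes, 6 were at the floor in both arrays, among them Mnx1 (7.3 in EGFP+ and 1.0 in EGFP- cells) and the acetylcholine synthesis gene Chat (4.4 and 11.1). Phox2a, a homeobox gene of visceral motor and noradrenergic neurons, had 4.9 against 52.4 and was at least 5.04-fold higher in EGFP- cells, and Slc18a3, the vesicular acetylcholine transporter gene, had 2.6 against 14.6. None of the 9 was higher than its floor in EGFP+ cells, where Isl1 and Isl2 had their higher signals. The summed signal of the motor neuron list was 37.1 in EGFP+ and 117.4 in EGFP- cells.

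Lhx3, which acts in pituitary, motor neuron and interneuron development, was near the floor. Its brighter probe set had 15.4 in EGFP+ and 19.1 in EGFP- cells, a log2 ratio of -0.31. Its other set, at 3.7 and 8.9, was below the floor in both arrays. No difference between the populations was detectable at these signals. Lhx4, the paralog of Lhx3 and not among the 10 members, had 9.3 against 19.1, at least 1.84-fold higher in EGFP- cells.

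**Figure D2:**
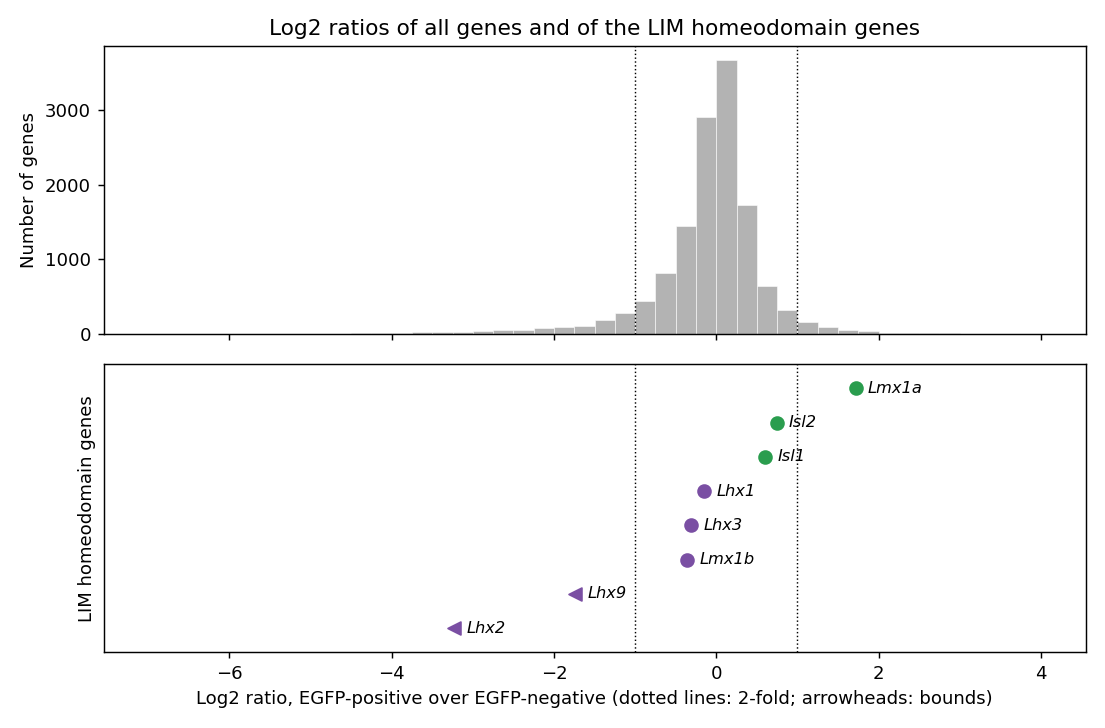
Upper panel, number of genes by log2 ratio of EGFP+ over EGFP- for all 13363 genes above the floor in at least 1 array; lower panel, the 8 LIM homeodomain genes above the floor on the same axis, circles for ratios measured on both sides and arrowheads for bounds, with dotted lines at 2-fold. Lmx1a at 1.72 lies in the upper tail, Lhx2 at -3.23 and Lhx9 at -1.74 in the lower tail, and the other 5 lie between the lines.

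Lhx2 and Lhx9 are paralogs that act together in the commissural neurons that arise next to the roof plate and rhombic lip, and Lhx2 also acts in the forebrain, eye, limb and liver mesenchyme. Lhx2 had a signal of 5.6 in EGFP+ and 97.4 in EGFP- cells. It was at least 9.37-fold higher in EGFP- cells, with the EGFP+ signal below the floor, and 0.69% of all genes had a lower ratio. Of the 8 members above the floor it had the largest distance between the populations, and its log2 ratio, at most -3.23 with the bound, ranged from -4.56 to -1.55 over the 9 other ways of processing that gave it a value.

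Lhx9 was carried by 4 probe sets, of which 2 were above the floor in EGFP- cells. The brightest had 5.3 in EGFP+ and 34.7 in EGFP- cells, at least 3.34-fold higher in EGFP- cells. The second had 4.0 and 15.8, at least 1.52-fold. The other sets, at 9.0 against 7.5 and at 0.3 against 7.7, were below the floor in both arrays, so 1 of the 4 sets gives the call. With the floor at the 60th percentile (33.3 and 37.5), Lhx9 was below it in both arrays and gave no value. Lhx2 was still 2-fold or more higher in EGFP- cells there, with a log2 ratio of -1.55.

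Of genes of the neuron class that expresses both paralogs, Atoh1 and Barhl1 were higher in the same array. Atoh1, the proneural gene of the rhombic lip lineage, had 4.6 in EGFP+ and 73.5 in EGFP- cells, at least 7.07-fold higher in EGFP- cells. Barhl1, a homeobox gene of that lineage, had 7.1 and 29.6, at least 2.85-fold, with a log2 bound of -1.09 for its second set. Atoh1, Barhl1, Lhx2 and Lhx9 were each below the floor in EGFP+ cells and above it in EGFP- cells, whereas Barhl2 (4.8 and 3.7) was at the floor in both. Of the 12634 genes above the floor in EGFP- cells, 11682 were above it in EGFP+ cells too, and the rest shared this state. Barhl1 and Barhl2 were named here after their values were seen.

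Over the whole list of 12 measured hindbrain and spinal interneuron genes, 8 were above the floor and 4 of them were at least 2-fold higher in EGFP- cells, with none in the other direction and a median log2 ratio of -1.11. Besides Atoh1 and Barhl1 these were Foxd3, which also marks neural crest (5.0 in EGFP+ against 48.6 in EGFP- cells), and Ptf1a, the proneural gene of inhibitory neurons (7.6 against 39.8). Evx1, a homeobox gene of ventral commissural neurons, had 39.4 against 29.4, a log2 ratio of 0.42. The summed signal of the list was 140.8 in EGFP+ and 342.2 in EGFP- cells, and none of its genes was listed at 0. Whether RNA of such neurons raised Lhx2 and Lhx9 in the EGFP- array was not tested.

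Markers of further cell types moved the same way as Lhx2 and Lhx9. For hindbrain neuroepithelium, 9 of the 10 genes above the floor were at least 2-fold higher in EGFP- cells, with a summed signal of 274.1 in EGFP+ and 2677 in EGFP- cells; Zic1 and Fabp7 had log2 ratios of -6.75 and -5.31, and Sox21 had 0.89. For periotic and branchial mesenchyme it was 10 of 12, with sums of 446.3 and 5932; Prrx1 and Twist1 were at -4.78 and -4.53, and Dcn at 0.45. For neural crest and glia it was 5 of 7, led by Ednrb (-3.49) and Pmel (-2.95), while Erbb3 (1.46) and Sox10 (1.14), the latter also an otic gene, were higher in EGFP+ cells, and the sums were 2377 and 1626. All 8 endothelial genes (sums of 77.3 and 639.9, led by Cd34 and Emcn with log2 bounds of -4.14 and -3.55), all 7 erythroid genes (2990 and 21183, led by Slc4a1 at -6.68 and Hemgn at a bound of -6.23) and all 8 leukocyte genes (77.7 and 1195, led by Csf1r at -5.05 and C1qb at a bound of -3.69) were at least 2-fold higher in EGFP- cells. Most markers of these types were thus higher in the same array as Lhx2 and Lhx9, and their part in those 2 results was not tested.

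**Figure D3:**
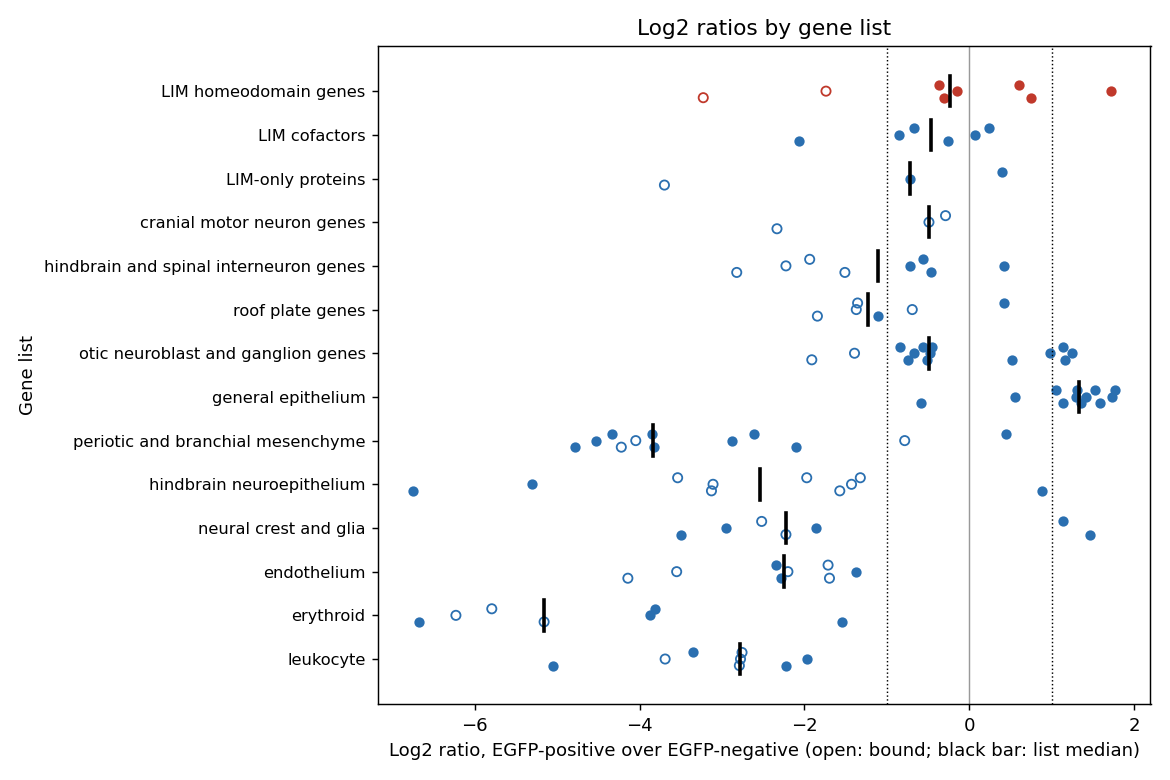
Log2 ratio of EGFP+ over EGFP- for the genes above the floor in each list (1 point per gene, open where 1 side is at the floor, points spread vertically for legibility), with the list median as a black bar and dotted lines at 2-fold. The LIM homeodomain genes (red) spread from -3.23 to 1.72 around a median of -0.23, the general epithelium genes lie around 1.33, and the medians of mesenchyme, hindbrain neuroepithelium, neural crest, endothelium and blood lie below -1.

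Lhx1 and Lhx5, a further pair of paralogs, act in interneurons, Purkinje cells and, for Lhx1, kidney and head formation. The brighter Lhx1 probe set had 21.6 in EGFP+ and 24.0 in EGFP- cells, a log2 ratio of -0.15. The other had 14.9 and 10.9, with the EGFP- side below the floor and a log2 bound of 0.26. The sets of Lhx1 thus pointed in opposite directions by amounts within the SD between probe sets at low signal. Lhx5 had 7.3 and 11.6, below the floor in both arrays, so no ratio is given.

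Lhx8, known from basal forebrain cholinergic neurons, tooth and palate mesenchyme and oocytes, had 7.2 in EGFP+ and 10.8 in EGFP- cells. Both lay below the floors. Its relative Lhx6, not among the 10 members, was at the floor in both arrays as well, with 6.1 and 8.0 for its brighter set. For Lhx5 and Lhx8 no difference between the populations can be read at these signals.

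The adaptors that LIM homeodomain factors need were present in both populations. Ldb1 had 215.4 in EGFP+ and 181.8 in EGFP- cells, a log2 ratio of 0.24. Ldb2, its paralog, had 35.6 and 149.2 and was 4.19-fold higher in EGFP- cells, with its other probe sets at -2.64 (a bound) and -2.20. The adaptor genes thus differed in their ratios, with Ldb2 on the side of Lhx2 and Lhx9. Ldb2 was the only gene of the 6 cofactor genes past 2-fold, and none was past 2-fold in EGFP+ cells.

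The single-stranded DNA-binding proteins that stabilise Ldb complexes were closer between the arrays. Ssbp3 had 477.7 in EGFP+ and 570.5 in EGFP- cells, a log2 ratio of -0.26. Ssbp2 had 356.2 and 566.5, a log2 ratio of -0.67, and its 3 other probe sets lay between -1.12 and -0.94. Ssbp4 had 56.1 and 101.2, a log2 ratio of -0.85. The 3 genes were all somewhat higher in EGFP- cells as represented, though Ssbp2 alone had probe sets past 2-fold. Rlim, the ubiquitin ligase that removes Ldb cofactors, had 232.1 and 221.1, with 4 other probe sets between log2 ratios of -0.52 and -0.12.

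Among the LIM-only proteins, Lmo2, a blood and endothelial regulator, had 3.5 in EGFP+ and 135.0 in EGFP- cells, at least 13.0-fold higher in EGFP- cells. Lmo4, a widely expressed member, had 280.7 and 463.4, a log2 ratio of -0.72. Lmo1, a neural member, had 43.7 and 33.1, a log2 ratio of 0.40, and Lmo3 was at the floor in both (1.2 and 10.3). Of the LIM-only genes, Lmo2 was thus the 1 past 2-fold, in the array where all erythroid and endothelial markers measured were higher. The part of those cells in the Lmo2 ratio was not tested.

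The genes whose signals were nearest to those of Lmx1a in both arrays were Eya4 (363.9 in EGFP+ and 104.9 in EGFP- cells), Pgpep1 (340.6 and 115.6) and Cdkn1a (419.9 and 110.6), at Euclidean distances of 0.12, 0.14 and 0.17 in log2 signal among 11681 other genes. For Isl1 they were Ublcp1 (648.0 and 435.5), Farp1 (658.2 and 424.9) and Akr7a5 (669.8 and 419.9), at 0.039, 0.048 and 0.064. This likeness rests on 2 arrays, so many genes come close by it.

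**Figure D4:**
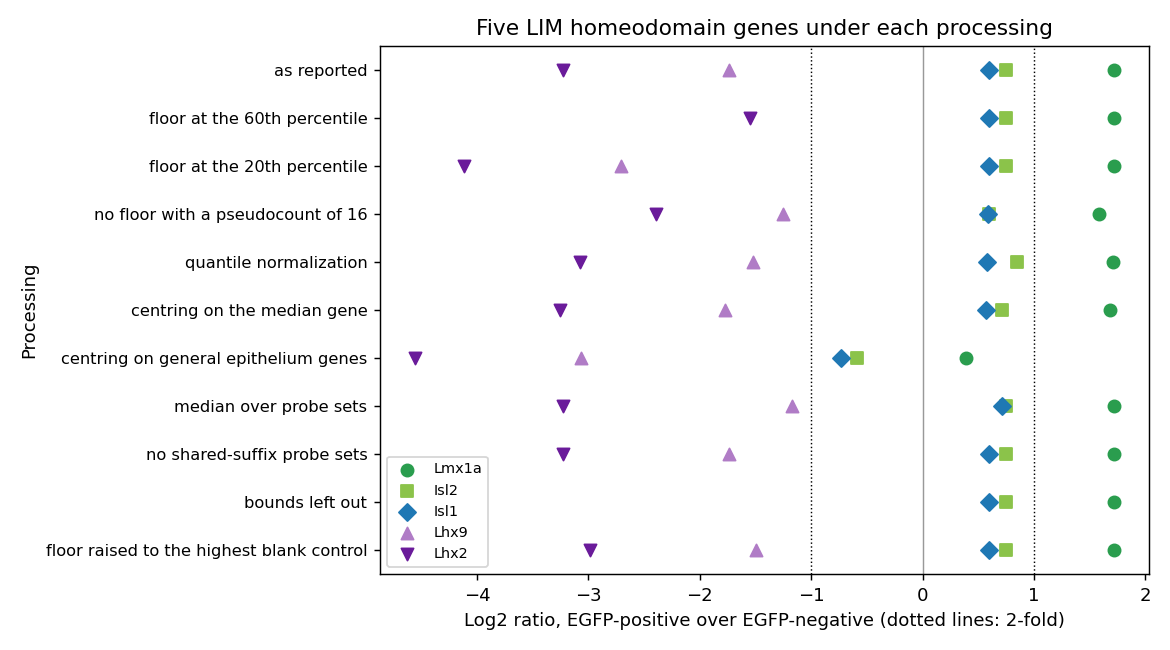
Log2 ratio of EGFP+ over EGFP- for 5 LIM homeodomain genes as reported and under 10 other ways of processing (rows), with dotted lines at 2-fold. Lmx1a lies between 1.59 and 1.72 in all rows but that centred on general epithelium genes, where it is 0.39 and where Isl1 and Isl2 turn below 0, and Lhx2 lies below -1 in every row that gives it a value.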

How the data were processed

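Total RNA of EGFP-positive and EGFP-negative otocyst cells was hybridised to 1 Affymetrix array each. The deposited intensity values are 1 MAS5 signal per probe set, version 5.0 per the submitters' processing notes. The mean after trimming 2% of values at each end was 100.0 in both columns, so the arrays had been scaled to a common level. Detection calls and scanner files were not used here. Of 45101 probe sets, 34958 named 1 gene in the platform table, 932 named several and 9211 were unnamed here.

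Log2 ratios were computed in Python 3.11.15 with numpy 2.4.6 and pandas 2.3.3, with signals raised to the 40th percentile of each array, and figures with matplotlib 3.10.9. Of 33 bacterial control probe sets without evident signal (under 20 in both arrays), 1 exceeded the floor, at 12.3 in the EGFP-positive array. A gene was counted at 2-fold or more, a log2 ratio of 1. With 1 array per population no test was made, and the number of arrays limits the precision. The procedure was tested on simulated data, with differences placed only in genes above the floor in both arrays, which Lhx2 and Lhx9 were not. The text names all members and all LIM cofactor, LIM-only and other LIM homeodomain genes. It also names the 2 largest ratios in each direction of each other list and the 3 nearest genes of Lmx1a and Isl1. Further genes of those lists were chosen after their values were seen. Some of these further genes lay on the same side as the members they were read with, and others did not. The members, the 14 other lists and the rule were chosen with earlier results of these data known. Some listed genes are not reported here. The alternatives changed the floor, the pseudocount, the scaling, the choice of probe set and the use of bounds.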

Additional observations from a re-analysis of the deposited data

How the results depend on the processing

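The number of members at least 2-fold higher in EGFP+ cells was 1 (Lmx1a) under all other ways of processing except centring on general epithelium genes, where it was 0. The number at least 2-fold higher in EGFP- cells, 2 as reported, was 1 under a 60th percentile floor, 5 with that centring and 0 with bounds left out, since both Lhx2 and Lhx9 are bounds. The members' median log2 ratio of -0.23 became 0.67 under a 60th percentile floor, -1.56 with centring on general epithelium genes and 0.22 with bounds left out, so its sign is not settled. Of the 103 genes above the floor in the other lists, 14 were at least 2-fold higher in EGFP+ cells and 59 in EGFP- cells; the first count was 0 with that centring and the second 26 with bounds left out. Over all genes that centring left 99.8% of calls on the EGFP- side. With the EGFP+ floor raised to its highest blank control of 12.3 and the EGFP- floor left at 12.4, an alternative chosen after seeing the data, the log2 ratios of Lhx2 and Lhx9 were -2.99 and -1.50. Signals near the floor limit what can be said of Lmx1b, Lhx1, Lhx3, Lhx5, Lhx8 and Lhx9. No paired analysis was possible because each population has 1 array.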

Other observations

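Among probe sets below the floor in both arrays, a few of the members had large plain ratios. The second Lmx1b set was 6.92 times higher in EGFP+ cells (8.3 against 1.2), opposite to its brighter set, and the fourth Lhx9 set was 25.7 times higher in EGFP- cells (0.3 against 7.7). The highest blank bacterial control reached 12.3 and 9.0, above all 4 signals in the array concerned, so these ratios are given as values only.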
